A study of Mus musculus with 6 samples.

Results

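Nnt and 7 other genes of mitochondrial NADPH redox chemistry (Idh2, Prdx3, Txn2, Txnrd2, Sod2, Gsr and Glrx2) were described in RNA of splenic mouse CD4+ T cells. They were taken by symbol from a deposited gene table of 28945 rows, where the 8 symbols held 9 rows because Nnt was listed under 2 gene identifiers. The DM group was 3 libraries of db/db mice, a model of obesity with type 2 diabetes caused by loss of the long leptin receptor, and the CONT group was 3 libraries of C57BL/6J mice. The labels give no treatment, age or sex, do not name the strain background of the db/db mice, and leave unsaid whether the libraries are different animals. The p-values therefore measure library-to-library spread, which may be technical. The comparison made was DM against CONT, and since the 8 genes were chosen with their values in these same libraries known, their own differences are given as a description with no test.

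Mitochondria keep a pool of NADPH that supplies electrons for removing hydrogen peroxide. Nnt, a proton-driven transhydrogenase of the inner membrane, and Idh2, an isocitrate dehydrogenase, make NADPH, while Sod2 turns superoxide into hydrogen peroxide. Peroxide is then reduced by Prdx3 with electrons passed from NADPH through Txnrd2 and Txn2, and a parallel glutathione branch runs through Gsr and Glrx2. In T cells mitochondrial peroxide also takes part in activation signals. The C57BL/6J strain is known to carry a deletion inside Nnt that removes several exons and leaves no functional protein, and GRCm38 is an assembly of that strain, so the exons it lacks are in none of the gene models below and were not measured here.

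The 2 Nnt rows were nested gene models on the minus strand of chromosome 13. In GENCODE M21, an annotation of GRCm38, ENSMUSG00000025453 spans 119335448 to 119408997 with 5 transcripts, and ENSMUSG00000116207 spans 119335528 to 119408952 with a single one, ENSMUST00000223268. The whole 3339-base sequence of ENSMUST00000223268 lies inside the 3464-base ENSMUST00000099149 of the other model, which adds 45 bases at the 5′ end and 80 at the 3′ end. Both have 17 exons and the same 2505 coding bases before the stop codon. Of the 3290 stretches of 50 bases in ENSMUST00000223268, 3290 also occur in the other model, so no such stretch is its own. The exon junctions below show where the transcripts are the same and where they part. Exon 7 (119381676 to 119381863) is in lower case and the next exon in capitals, both coding: exon 8 (119374629 to 119374774) in the first pair, and exon 10 (119369912 to 119370145) in ENSMUST00000069902, which skips exons 8 and 9.
ENSMUST00000223268: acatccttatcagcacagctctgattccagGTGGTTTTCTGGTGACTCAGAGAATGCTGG
ENSMUST00000099149: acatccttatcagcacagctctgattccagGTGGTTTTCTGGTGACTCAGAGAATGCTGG
ENSMUST00000069902: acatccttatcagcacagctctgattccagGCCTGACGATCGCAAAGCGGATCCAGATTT

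Levels were in FPKM, a fragment measure corrected for transcript length and for the depth of the library. The ENSMUSG00000116207 row of Nnt was listed at 0 in DM replicates 1, 2 and 3, against 1.94, 1.47 and 0.928 FPKM in CONT replicates 1, 2 and 3. No DM library had a value above 0 and every CONT library did. The ENSMUSG00000025453 row went the other way, at 3.70, 3.09 and 3.71 FPKM in DM and 2.22, 1.84 and 1.86 FPKM in CONT. All 3 DM libraries lay above all CONT libraries in that row, with a log2 difference of 0.60 ± 0.18 (SE) on the log2(FPKM + 1) scale.

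Summed over both rows, Nnt was at 3.70, 3.09 and 3.71 FPKM in DM and at 4.16, 3.31 and 2.79 FPKM in CONT. The groups overlapped, with 3.50 ± 0.357 FPKM (SD, n = 3) in DM and 3.42 ± 0.693 FPKM (SD, n = 3) in CONT, and the log2 difference was 0.03 ± 0.20 (SE). The total was thus within the spread between libraries while its split between the rows differed: ENSMUSG00000025453 held 100% of the summed mean in DM and 57.7% in CONT. The level of either row alone is uncertain, since the sources used here do not name the program that shared reads between the models. The sum kept within -0.25 and 0.15 over its alternative settings, the ends being scaling to equal totals and leaving out CONT replicate 1. In the authors' deposited table the ENSMUSG00000116207 row carries the flag of a lower gene, and the ENSMUSG00000025453 row, listed as higher, carries none. These flags come from the same libraries, on which the gene was chosen, so nothing is read from them.

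**Figure D1:**
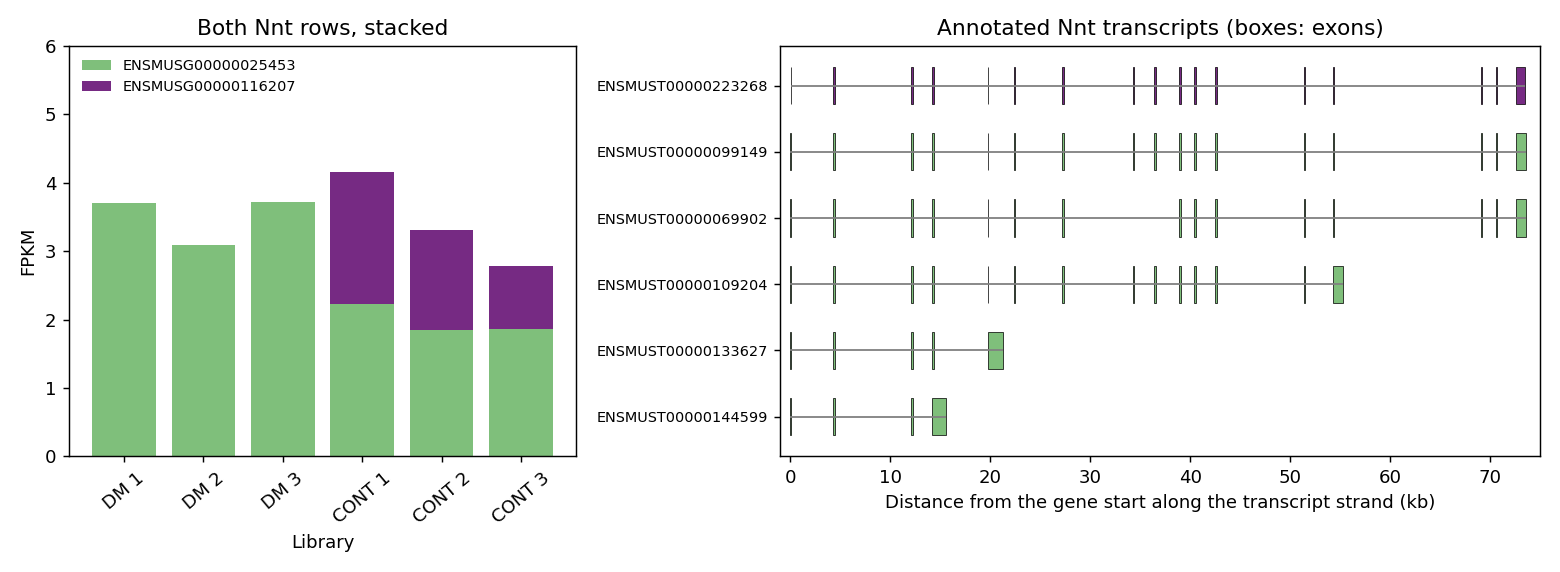
Left, FPKM of the 2 Nnt rows stacked for each library (bars start at 0); right, the exons (boxes) of the 6 annotated Nnt transcripts by distance in kb from the gene start, with ENSMUST00000223268 of the ENSMUSG00000116207 row in purple and those of ENSMUSG00000025453 in green. The purple part is 0 in the DM libraries and 0.928 to 1.94 FPKM in CONT, while the stacked heights overlap at 3.09 to 3.71 FPKM in DM and 2.79 to 4.16 FPKM in CONT.

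Rows at 0 throughout 1 group were counted where each library of the other group was above 0 and their mean was at least 1 FPKM. Nnt was chosen on this contrast and met that level through CONT alone, so nothing is read from the counts that follow. Of all 28945 rows, 3 were at 0 in the DM libraries, above 0 in each CONT library and at a CONT mean of at least 1 FPKM, and Nnt was the only one of them with a protein-coding transcript type. The reverse pattern held for 7 rows. Of 58 symbols with more than 1 row, 30 reached a summed mean of 1 FPKM, and Nnt was the only one of the 30 with a row at 0 in 1 group only. Symbols that split without that pattern included Septin2, whose leading row held 72.8% of the summed mean in DM and 80.3% in CONT, and Ptp4a1, at 72.6% in DM and 94.4% in CONT.

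Idh2 (GRCm38 chromosome 7, 80094846 to 80115392, minus strand), the NADP-dependent isocitrate dehydrogenase and the other NADPH source among the 8, was at 22.6, 16.1 and 16.4 FPKM in DM and 16.2, 16.7 and 13.6 FPKM in CONT. The groups overlapped, with DM replicate 1 the highest library, and the log2 difference was 0.22 ± 0.21 (SE), which became -0.11 when libraries were scaled to equal totals. Since FPKM is per length, levels of different genes can be set beside each other: Idh2 over summed Nnt was 5.25 ± 0.852 in DM and 4.59 ± 0.619 in CONT (SD, n = 3 each). Summed Nnt made up 16.2% ± 2.22 of the Nnt plus Idh2 level in DM and 18.0% ± 2.12 in CONT (SD, n = 3 each). The difference was inside the spread. The ratio and the share compare RNA levels only, and NADPH supply was not tested. The CONT strain is known to make no functional Nnt protein, and the exons it lacks were not measured. The strain background of the db/db mice is not named. The Nnt gene models also hold transcripts with no coding bases.

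In the thioredoxin branch the peroxidase Prdx3 was the most abundant of the 8 genes in all 6 libraries. Prdx3 (chromosome 19, 60864051 to 60874556, minus strand) was at 127, 70.5 and 71.2 FPKM in DM and at 23.4, 68.5 and 67.3 FPKM in CONT. DM lay above CONT, but DM replicate 2 and CONT replicate 2 were nearly level and the distance between group means rested mostly on DM replicate 1 and CONT replicate 1. The log2 difference was 0.84 ± 0.47 (SE), 0.34 without CONT replicate 1 and 0.56 without DM replicate 1. Txn2 (chromosome 15, 77915047 to 77929006, minus strand), the thioredoxin that hands electrons to Prdx3, was at 15.1, 10.3 and 13.6 FPKM in DM and 9.42, 13.1 and 12.7 FPKM in CONT, with overlapping groups and a log2 difference of 0.13 ± 0.22 (SE) that was -0.19 with equal totals.

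Txnrd2 (chromosome 16, 18426384 to 18479073, plus strand), the selenoprotein that reduces Txn2 with NADPH, varied widely within both groups. It was at 9.42, 2.81 and 5.94 FPKM in DM and at 2.22, 4.80 and 2.22 FPKM in CONT. The groups overlapped, since DM replicate 2 lay below CONT replicate 2, and the log2 difference was 0.73 ± 0.41 (SE). It was 0.39 without DM replicate 1 and 1.12 without DM replicate 2. The ratio of Prdx3 to Txn2 was 8.42, 6.83 and 5.24 in DM and 2.48, 5.22 and 5.31 in CONT, so CONT replicate 1 alone stood low.

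Sod2 (chromosome 17, 13006846 to 13040063, plus strand), the manganese superoxide dismutase, varied little, at 5.56, 4.39 and 4.92 FPKM in DM and 3.96, 4.72 and 4.44 FPKM in CONT. Its groups overlapped and its log2 difference was 0.15 ± 0.17 (SE), or -0.15 with equal totals. Sequence copies touch Sod2 more than the other members apart from Nnt: 21.04% of the 50-base stretches of its annotated transcripts also occur in transcripts of another gene, chiefly AC166110.4 and Rps6ka2, so its level is uncertain to that extent. The share was 4.02% for Glrx2, 2.72% for Txnrd2, 0.908% for Txn2 and 0 for Gsr, Idh2 and Prdx3.

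In the glutathione branch, Gsr had the largest log2 difference of the 8 genes as deposited, with Nnt summed. Gsr (chromosome 8, 33652523 to 33698163, plus strand), glutathione reductase of both cytosol and mitochondria, was at 27.5, 16.0 and 38.9 FPKM in DM and 10.1, 11.7 and 10.4 FPKM in CONT. The 3 DM libraries were all above the CONT libraries and spread widely, while CONT was tight, with 27.5 ± 11.4 FPKM in DM and 10.8 ± 0.865 FPKM in CONT (SD, n = 3 each). The log2 difference was 1.19 ± 0.31 (SE), between 0.91 and 1.52 with each library left out in turn and 0.86 with equal totals. In the authors' deposited table Gsr carries the flag of a higher gene. That flag comes from these same libraries, on which the gene was chosen, so nothing is read from it. Glrx2 (chromosome 1, 143716338 to 143749676, plus strand), a glutaredoxin that handles glutathione-bound thiols, was the lowest member in 5 of the 6 libraries, at 1.81, 1.62 and 1.82 FPKM in DM and 2.95, 2.02 and 1.40 FPKM in CONT, with overlapping groups and a log2 difference of -0.15 ± 0.23 (SE) that was 0.03 without CONT replicate 1.

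**Figure D2:**
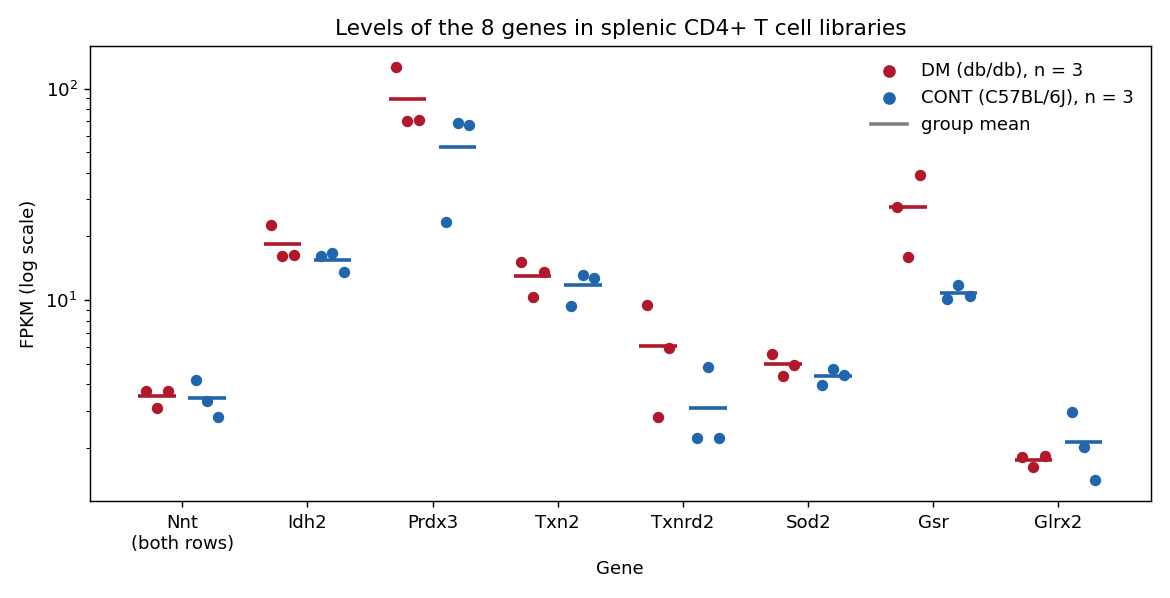
FPKM on a log scale for the 8 genes, with DM libraries in red to the left of CONT libraries in blue (points: libraries, 3 per group; bars: group means), Nnt being the sum of its 2 rows. Gsr has its 3 DM points (16.0 to 38.9 FPKM) above its CONT points (10.1 to 11.7 FPKM), Prdx3 has its lowest DM point (70.5 FPKM) just above its highest CONT point (68.5 FPKM), and the other 6 genes overlap.

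Markers of other cells were present in these purified cells, and a link between them and the spread of Gsr within DM was not tested. Averaged over 50 marker genes of B and plasma cells, macrophages and monocytes, neutrophils, basophils and mast cells, and erythroid cells, the log2(FPKM + 1) level was 3.91, 3.23 and 5.16 in DM replicates 1, 2 and 3 and 1.79, 2.17 and 1.93 in CONT. The order of the DM libraries in this pooled level, replicate 3 above 1 above 2, was the order of Gsr. The B and plasma cell, neutrophil and erythroid lists each kept that order. Basophil and mast cell markers did not, at 4.10, 3.33 and 2.51 in DM replicates 1, 2 and 3, nor did macrophage and monocyte markers, at 3.86, 3.88 and 5.21. Groups did not overlap for 7 of the 7 basophil and mast cell genes tested, 11 of 12 for macrophages and monocytes, 6 of 10 for neutrophils, 5 of 12 for B and plasma cells and 0 of 9 for erythroid cells, beside 27.1% of all 13106 tested genes. Summed macrophage and monocyte markers ran from 312 to 1170 FPKM in DM and from 30.9 to 94.6 FPKM in CONT, and summed neutrophil markers from 234 to 1328 FPKM in DM and from 31.2 to 113 FPKM in CONT. Summed B and plasma cell markers ran from 252 to 766 FPKM in DM and from 37.9 to 114 FPKM in CONT, basophil and mast cell markers from 69.5 to 335 FPKM in DM and from 3.32 to 8.88 FPKM in CONT, and erythroid markers from 253 to 5197 FPKM in DM and from 116 to 459 FPKM in CONT. By limma, at a Benjamini-Hochberg adjusted p below 0.05, 4 basophil and mast cell genes rose (Mcpt8, Prss34, Fcer1a and Cpa3), as did 4 macrophage and monocyte genes (Lyz2, Ccr2, Mpeg1 and Fcgr3) and 1 B and plasma cell gene (Tnfrsf17), beside 1.27% of all tested genes. Of the neutrophil and the erythroid genes limma called 0, with 5 of each list at an unadjusted p below 0.05, beside 16% of all tested genes. None of the markers in the table was at 0 in all 6 libraries. With the 50-marker level as a covariate the Gsr difference was -0.10 and that of Txnrd2 -0.15, while that of Prdx3 was 0.71. The groups do not overlap in that level, so it and the group cannot be told apart. In bulk RNA, fewer cells of a type and less RNA per cell cannot be told apart.

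CD4+ T cell identity genes were measured at high levels in all libraries, 16 genes summing to 1395 to 2063 FPKM in DM and 2359 to 2690 FPKM in CONT. Of the 16, 15 had a log2 difference below 0 (median -0.53), where 48.8% of all tested genes were above 0. Their groups did not overlap in 10 of the 16, beside 27.1% of all tested genes. Limma called 0, beside 1.52% of all tested genes, and put 7 at an unadjusted p below 0.05, beside 16%. CONT replicate 1 stood apart: its FPKM total was 248070, against 327172 and 369531 in the other CONT libraries and 385070 to 410282 in DM, and ribosomal protein genes took 6.08% of it, against 11.9% to 16.3% elsewhere. Relative depth, estimated from the spacing of low values in 15403 single-transcript genes, ran from 0.998 to 1.08 in DM and from 0.805 to 1.12 in CONT. It is a rough estimate, since only 10.2% to 11.5% of low values lay within 0.02 of a whole step. Steps were also searched only from 0.05 to 0.08 FPKM times kb, which bounds how far the depths can differ. With no read totals in hand, the counting error behind a value is unknown.

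All 9 rows reached the tested level, a mean of at least 1 FPKM in DM or CONT, and ENSMUSG00000116207 did so through CONT alone. No test of the 9 is given. The DM and CONT libraries did not overlap in 4 of the 9 rows (both Nnt rows, Prdx3 and Gsr), where 27.1% of the 13106 tested genes were separated. The genes were chosen on this contrast, so nothing is read from this count. Of the 7 genes other than Nnt, 6 had a difference above 0, with a median of 0.22 beside -0.01 for all tested genes, 48.8% of which were above 0. Scaling to equal totals moved the median of all genes to -0.31 and that of the 7 genes to -0.11. The sum of the 8 genes was 213, 125 and 156 FPKM in DM and 72.4, 125 and 115 FPKM in CONT, and DM replicate 2 and CONT replicate 2 were level.

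**Figure D3:**
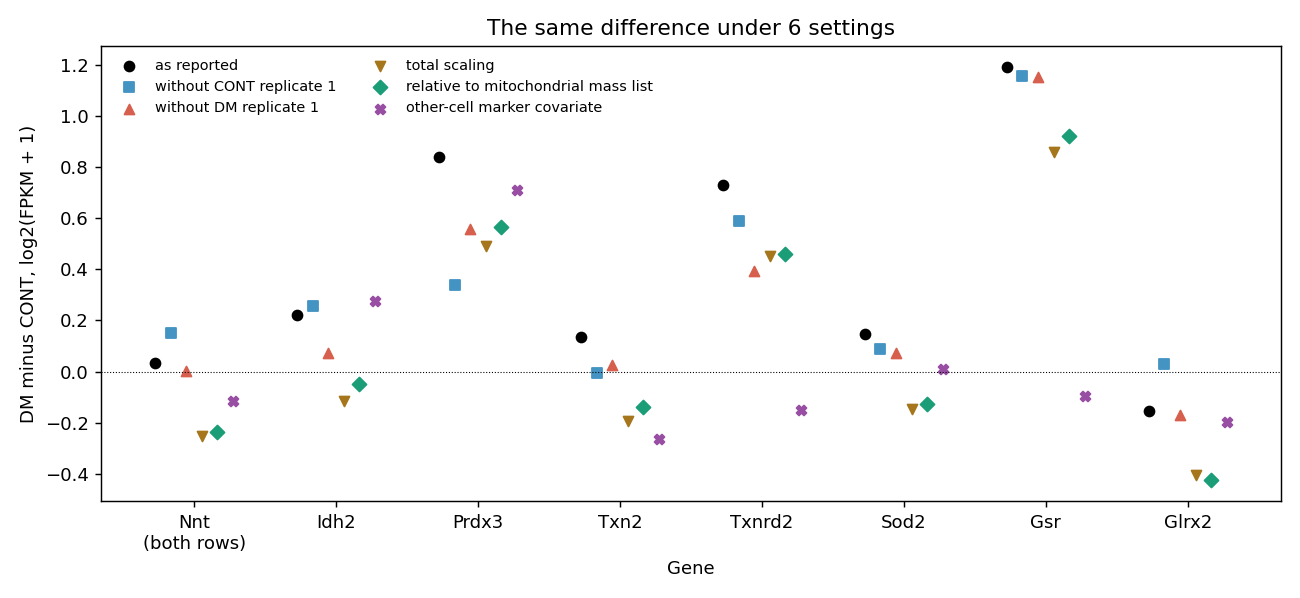
Log2(FPKM + 1) difference, DM minus CONT, of the 8 genes (Nnt as the sum of its rows) under 6 settings, 1 symbol each. Gsr lies between 0.86 and 1.19 in 5 of these settings and at -0.10 with the marker level of other cells as a covariate. That level cannot be told apart from the group. Summed Nnt stays between -0.25 and 0.15.

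Other genes of NADPH supply and thiol redox chemistry were read from 8 lists chosen by function, of 102 genes. Of all 13106 tested genes 1.52% were called, 1.27% higher and 0.252% lower in DM, and 48.8% had a difference above 0. Scaling to equal totals moved the median of all tested genes from -0.01 to -0.31. List genes moved too, such as G6pdx from 0.45 to 0.11 and Tomm20 from 0.47 to 0.14. Of the 96 list genes tested, 1 rose (Gstm1), 0 fell and 14 had an unadjusted p below 0.05 (limma), which is 14.6% of them beside 16% of all tested genes. Gstm1, a glutathione S-transferase, was at 17.7, 9.32 and 7.80 FPKM in DM and 1.46, 2.81 and 1.98 FPKM in CONT, with a log2 difference of 1.97 ± 0.32 (SE; limma adjusted p = 0.0371). It passed in 8 of 17 alternative settings (limma adjusted p from 0.0233 to 0.9996), and of the 6 fits with a library left out only the one without CONT replicate 2 kept the call (limma adjusted p = 0.0484, against 0.0629 to 0.104 without DM replicates 1, 2 and 3 and CONT replicates 1 and 3). With the other-cell level as a covariate, which cannot be told apart from the group, its difference was 2.28.

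The list of other mitochondrial NADPH sources, which also holds related folate, cofactor and carrier genes, gave no call among 7 tested genes (3 above 0, median -0.03). Glud1, glutamate dehydrogenase, was at 38.8, 41.3 and 48.1 FPKM in DM and 36.4, 33.5 and 32.3 FPKM in CONT, the groups not overlapping (limma adjusted p = 0.392). The mitochondrial folate carrier Slc25a32 was at 5.73 ± 0.524 FPKM in DM and 7.24 ± 0.724 FPKM in CONT, Nadk2, the mitochondrial NAD kinase (log2 difference 0.59, or 0.22 without DM replicate 1), at 9.95 ± 5.40 FPKM in DM and 6.14 ± 3.01 FPKM in CONT, and the malic enzyme Me2 at 11.9 ± 1.96 FPKM in DM and 12.8 ± 1.70 FPKM in CONT (SD, n = 3 each; limma adjusted p from 0.377 to 0.770). Me3, Mthfd2l and Aldh1l2 were below the tested level.

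The list named cytosolic NADPH sources also holds genes that do not make NADPH themselves, such as Tkt, Pgls, Taldo1 and Nadk. It had 8 of 8 tested genes above 0, a median of 0.47 and no call. Idh1, the cytosolic counterpart of Idh2, was at 13.0, 7.49 and 9.78 FPKM in DM and 1.98, 3.71 and 3.83 FPKM in CONT. Its groups were far apart, yet its log2 difference of 1.41 ± 0.28 (SE; limma adjusted p = 0.0639) did not pass, so the 2 isocitrate dehydrogenases are set side by side only: 1.41 for Idh1 and 0.22 for Idh2, the difference between them not being tested. Tkt, Pgls and G6pdx of the pentose phosphate pathway had log2 differences of 0.58, 0.51 and 0.45 (limma adjusted p from 0.330 to 0.408). With the other-cell level as a covariate the differences were 0.021 for Tkt, -0.19 for Pgls, -0.28 for G6pdx and 1.05 for Idh1. That level and the group cannot be told apart, so nothing is read from these values. Without DM replicate 1 the difference was 0.35 for Tkt and 0.25 for G6pdx.

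The list of 14 cytosolic thioredoxin and glutathione enzymes had 12 above 0, a median of 0.55 and no call. Of the 14, 4 genes were below an unadjusted p of 0.05 (limma). Among all tested genes 48.8% were above 0 and 16% below that p. The peroxiredoxin of the secretory pathway, Prdx4, was at 26.5, 14.99 and 16.1 FPKM in DM and 3.57, 8.34 and 8.24 FPKM in CONT, and cytosolic thioredoxin, Txn1, at 122, 61.5 and 94.9 FPKM in DM and 16.1, 52.1 and 58.5 FPKM in CONT. Both had separate groups with CONT replicate 1 the lowest library, as for Prdx3, and log2 differences of 1.42 ± 0.35 for Prdx4 (SE; limma adjusted p = 0.121) and 1.26 ± 0.51 for Txn1 (SE; limma adjusted p = 0.306). Without CONT replicate 1 the difference was 1.08 for Prdx4 and 0.68 for Txn1. With the other-cell covariate, which cannot be told apart from the group, it was 1.27 for Prdx4 and 0.45 for Txn1. The list named other mitochondrial antioxidant proteins also holds genes that are not antioxidant enzymes, such as Txnip, Cox17 and Coa6. Its 14 genes had 11 above 0, a median of 0.26 and no call, with 2 genes below an unadjusted p of 0.05 (limma). Among them Prdx5, a peroxiredoxin of mitochondria and peroxisomes, was at 27.2 ± 3.33 FPKM in DM and 15.2 ± 5.23 FPKM in CONT (SD, n = 3 each; limma adjusted p = 0.235), and the glutathione peroxidase Gpx4, which reduces lipid peroxides, at 90.8 ± 30.4 FPKM in DM and 41.9 ± 25.6 FPKM in CONT (SD, n = 3 each; limma adjusted p = 0.313). The log2 difference was 1.31 for Gpx4 and 0.85 for Prdx5. Without CONT replicate 1 it was 0.64 for Gpx4 and 0.59 for Prdx5. With the other-cell covariate, which cannot be told apart from the group, it was 1.16 for Gpx4 and 0.45 for Prdx5.

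The list of Nrf2, the transcription factor of antioxidant genes, with its regulators and targets had 13 tested genes, of which 1 rose (Gstm1), 0 fell and 12 did not pass, with 9 above 0 and a median of 0.47. Gsta4, another glutathione S-transferase, was at 10.99 ± 3.49 FPKM in DM and 3.47 ± 1.98 FPKM in CONT (SD, n = 3 each; limma adjusted p = 0.154). Haem oxygenase, Hmox1, also among the macrophage markers, was at 5.93, 7.45 and 38.5 FPKM in DM, with replicate 3 far above the others, and at 1.79, 2.39 and 2.80 FPKM in CONT (limma adjusted p = 0.205). With the 50-marker level as a covariate its difference was -0.64. That marker set holds Hmox1 itself, and its level cannot be told apart from the group.

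General mitochondrial genes give a level beside which the mitochondrial members can be set. The 22 mass and import genes, such as Vdac2 and Tomm20 of the outer membrane, had 18 above 0, a median of 0.26 and no call, with 1 at an unadjusted p below 0.05 (limma), and 13 NAD-linked tricarboxylic acid enzymes had 10 above 0, a median of 0.24 and no call, with 0 at an unadjusted p below 0.05 (limma). The mean log2(FPKM + 1) level of the mass and import genes was 4.62, 4.09 and 4.24 in DM and 3.71, 4.32 and 4.10 in CONT. The groups overlapped in this reference, with DM replicate 1 the highest library and CONT replicate 1 the lowest. Taken relative to the mass and import genes in each library, the differences were -0.24 for summed Nnt, -0.05 for Idh2, -0.13 for Sod2, -0.14 for Txn2, 0.46 for Txnrd2, 0.57 for Prdx3, 0.92 for Gsr and -0.43 for Glrx2. The 9 tested FoxO and PGC-1 regulators of mitochondrial antioxidant genes had 1 above 0, where 48.8% of all tested genes were, a median of -0.34 and no call. Of the 9, 3 had an unadjusted p below 0.05 (limma) and 2 had separate groups, beside 16% and 27.1% of all tested genes. Their mean log2(FPKM + 1) level was 2.56, 2.65 and 2.66 in DM and 3.37, 2.99 and 2.67 in CONT. CONT replicate 3 was thus level with DM, and CONT replicate 1 was the highest. Foxo1 was at 8.31, 19.0 and 14.4 FPKM in DM and 46.4, 22.98 and 20.97 FPKM in CONT (limma adjusted p = 0.283), with a log2 difference of -1.04 that was -0.69 without CONT replicate 1, and the coactivator Ppargc1b at 0.886 ± 0.237 FPKM in DM and 2.22 ± 0.966 FPKM in CONT (SD, n = 3 each; limma adjusted p = 0.278).

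**Figure D4:**
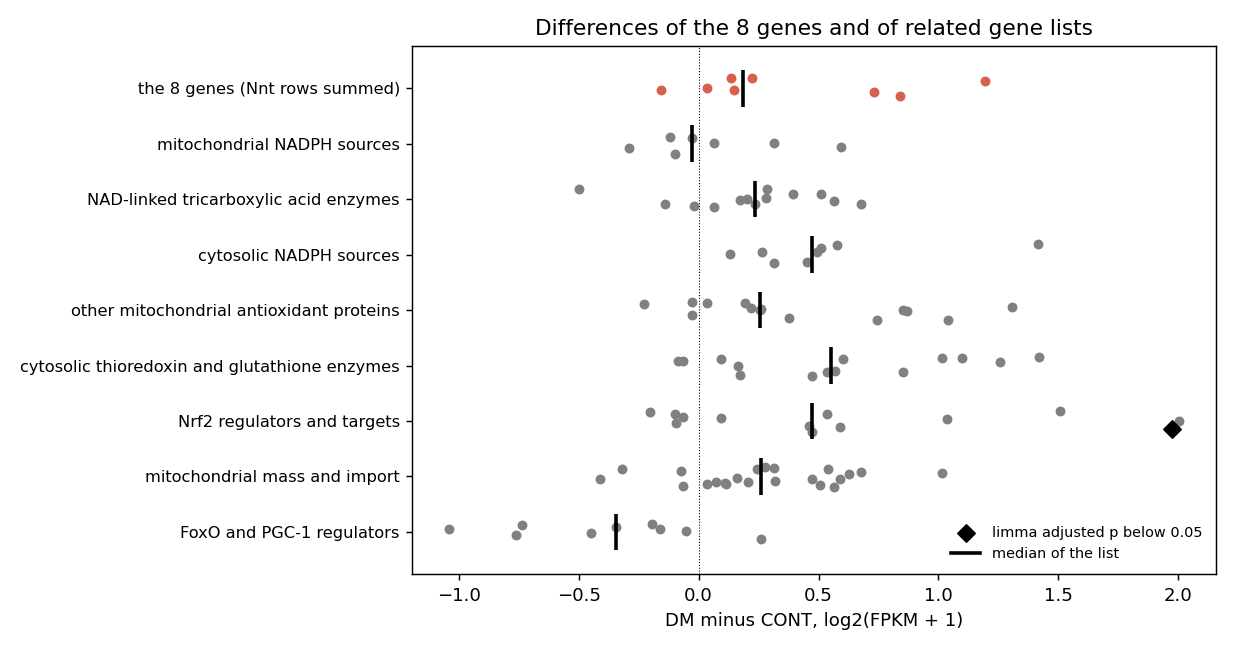
Log2(FPKM + 1) differences, DM minus CONT, for the 8 genes (top row, Nnt as the sum of its rows) and for the tested genes of 8 related lists (points: genes; bars: list medians; diamond: limma adjusted p below 0.05). Gstm1, at 1.97, is the only called gene, list medians run from -0.34 to 0.55, and the 8 genes span -0.15 to 1.19.

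Around Nnt on chromosome 13, 55 other genes have their left end within 1 Mb of those of the Nnt models, 31 of them were in the table and 15 were tested. Of the 15, 1 fell (Tmem267), 0 rose and 14 did not pass, 7 were above 0 and 7 had separate groups, a count read beside 27.1% of all tested genes. Tmem267, a transmembrane protein gene (119488039 to 119611059) whose left end lies 152.6 kb from that of Nnt, was at 0.300, 0.198 and 0.299 FPKM in DM and 1.62, 2.31 and 1.81 FPKM in CONT. Its 3 DM libraries were all below CONT, with a log2 difference of -1.20 ± 0.21 (SE; limma adjusted p = 0.0459). The call held in 6 of 16 alternative settings (limma adjusted p from 0.0315 to 0.9996) and, of the fits with a library left out, in the one without CONT replicate 1 (0.0449, against 0.103 to 0.201 without DM replicates 1, 2 and 3 and CONT replicates 2 and 3), and its sign was the same in all 16.

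The nearest tested gene, Paip1 (a translation regulator that binds poly(A)-binding protein), was at 12.7 ± 1.86 FPKM in DM and 14.6 ± 1.94 FPKM in CONT (SD, n = 3 each; limma adjusted p = 0.568). Hmgcs1, the HMG-CoA synthase of sterol synthesis, was at 11.6 ± 0.559 FPKM in DM and 9.27 ± 1.28 FPKM in CONT, with separate groups (limma adjusted p = 0.379), and Zfp131 at 14.5 ± 2.12 FPKM in DM and 14.4 ± 3.19 FPKM in CONT (limma adjusted p = 0.965). The noncoding Gm36161 had the largest difference upwards of the 15, at 4.54, 1.93 and 5.15 FPKM in DM and 0.143, 0.441 and 0.708 FPKM in CONT (log2 difference 1.72 ± 0.33 SE; limma adjusted p = 0.0612), and it passed without DM replicate 2 (limma adjusted p = 0.0373) and under none of its other alternatives (0.0539 to 0.9996). Mrps30, a mitochondrial ribosomal protein gene on the other side of Nnt, was at 4.14 ± 0.444 FPKM in DM and 3.36 ± 0.786 FPKM in CONT. The remaining 9 had limma adjusted p from 0.158 to 0.907.

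**Figure D5:**
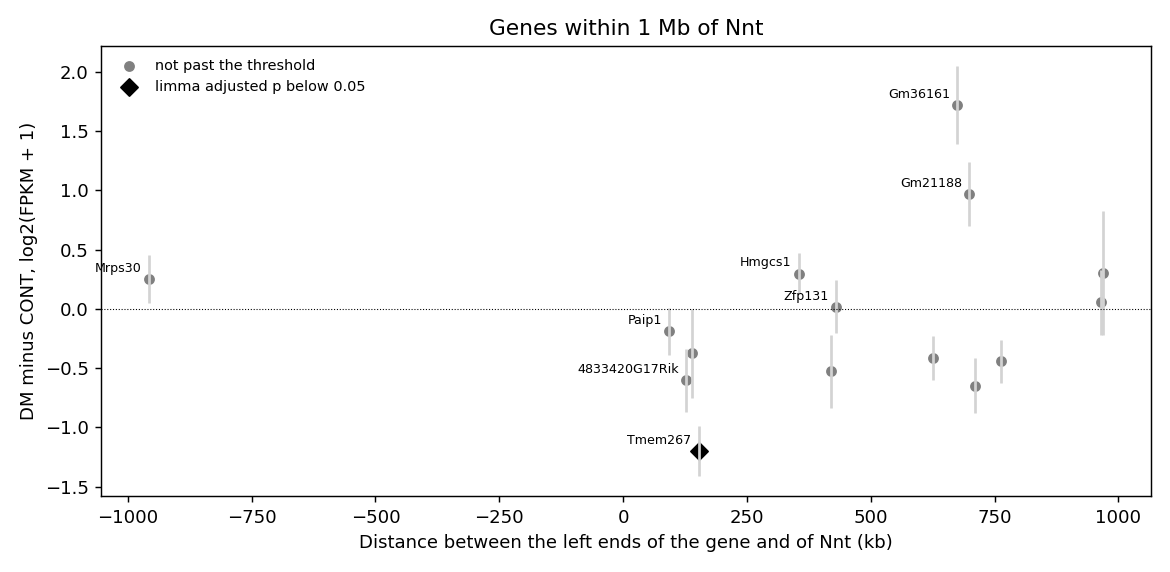
Log2(FPKM + 1) difference, DM minus CONT, with its SE for the 15 tested genes near Nnt, by distance in kb between the left ends of the gene and of Nnt. Tmem267 (-1.20, diamond) is the only called gene, with genes on both sides of 0 around it.

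The genes most like each Nnt row over the 6 libraries, by Pearson correlation of log2(FPKM + 1) among 10384 tested genes other than pseudogenes, predicted genes and receptor segments, were near copies of its split between the groups. For ENSMUSG00000116207 they were Apobec3 (r = 0.992), Nat8f4 (0.992), AC113595 (0.991), Creb1 (0.990), Spns1 (0.989) and Zfp53 (0.989), with DM libraries all below CONT. For ENSMUSG00000025453 they were Gzmb (r = 0.993), Mdfic (0.991), Palm (0.989), Macroh2a1 (0.989), Tmem38b (0.989) and Ift27 (0.988), with DM libraries all above CONT. The sum of both rows gave others, among them Usp6nl (r = 0.996), Apaf1 (0.994), Wdr7 (0.992), Mafg (0.989) and Tmem170b (0.988), each with a log2 difference between 0.00 and 0.11. With 6 libraries in 2 groups, 130, 102 and 65 genes exceeded an r of 0.95 for the first row, the second row and the sum, so these names describe a pattern over libraries whose other-cell markers also differ between the groups.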

How the data were processed

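RNA of splenic CD4+ T cells was sequenced in 3 DM and 3 CONT libraries, after Trizol extraction per the labels' protocols. Per the submitters' processing notes, cutadapt 1.9, FastQC and the GRCm38 build were used; neither these notes nor the labels name the aligner, the quantifier or the strand setting. The authors deposited 1 table with a value per library in FPKM, read as such from the values although its name says count. They also deposited a p-value, a q-value, a ratio of group means and its log2 per gene, of which only the flags are quoted, and the sources do not name the authors' test.

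Limma 3.58.1 (R 4.3.3) was run on log2(FPKM + 1) (trended, robust prior, no covariate, two-sided), over 13106 genes with a mean of at least 1 FPKM in DM or CONT, with Benjamini-Hochberg adjustment over all of them and a threshold of 0.05. The log2 scale with a pseudocount of 1 understates the change of low genes. The procedure was tested on simulated data. Rows were matched to GENCODE M21 (28864 of 28945, 99.7%). Members and lists were chosen with earlier results of these data known. Named genes are the 8 members, up to 4 genes per list by smallest p plus every called gene, tested genes within 1 Mb of Nnt, and the 6 genes most correlated with Nnt; not all of these are described, and 1 is not reported here. Alternatives were 3 other scalings, 2 pseudocounts, 2 filters, another prior, a replicate block, an other-cell covariate and leaving out each library; summing the Nnt rows and scaling to mitochondrial mass genes were chosen after seeing the data. Matplotlib 3.10.9 (Python 3.11.15) drew the figures.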

Additional observations from a re-analysis of the deposited data

How the results depend on the processing

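Over 16 alternative settings and the later scaling to mitochondrial mass genes, the 46 genes tested outside the members kept direction and side of the threshold in 728 of 771 values; 19 lost a call (Gstm1 in 9, Tmem267 in 10), 1 gained one (Gm36161) and 23 changed sign, of genes that were not called. The cause was not tested unless stated. The count of called genes, 199, was 28 with no filter on low values, where more genes are tested, 0 with the other-cell covariate (270 at an unadjusted p below 0.05, limma) and 24 to 192 with a library left out. The covariate and the group cannot be told apart. The count was 24 without DM replicate 1, 67 without DM replicate 3 and 87 without CONT replicate 3, fits that also hold fewer samples. The single list gene called became 0 with total scaling, no filter, the replicate block and the covariate, and was 0 to 1 with a library left out; list genes at an unadjusted p below 0.05 (limma) numbered 9, 13, 7 and 1 in the first 4. No positive pairing by replicate number was seen. Same-numbered libraries correlated at -0.36, -0.38 and -0.20 in their deviations from group means, and the others at -0.14 to 0.50. With 3 libraries per group such deviations are tied to each other, so they cannot settle whether samples are paired. With the replicate block 204 genes were called.

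The difference of the Nnt row ENSMUSG00000116207 (-1.27) was -3.89 and -1.93 with pseudocounts 0.1 and 0.5, since its DM values are 0 and no fold exists, -1.54 relative to mitochondrial mass genes, and -1.43 to -1.13 with a library left out. For ENSMUSG00000025453 (0.60) it was 0.33 with total scaling, 0.79 with pseudocount 0.1, 0.44 with the covariate, 0.32 relative to mass genes and 0.56 to 0.66 with a library left out. The summed rows (0.03) gave -0.25 with total scaling, -0.24 relative to mass genes and -0.07 to 0.15 with a library left out. The median of the other 7 members (0.22) was -0.11 with total scaling, -0.10 with the covariate, -0.049 relative to mass genes and 0.07 to 0.30 with a library left out. The filter at 5 FPKM removed both Nnt rows, Sod2 and Glrx2 and gives no value for them.

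Signs changed with total scaling for Glud1 (-0.033), Mrps30 (-0.026), Hmgcs1 (-0.030), Zfp131 (-0.31), BC147527 (-0.28) and Gm20900 (-0.015), with upper quartile scaling for Zfp131 (-0.0065), with the covariate for Pgls (-0.19), G6pdx (-0.28), Gpx1 (-0.40), Hmox1 (-0.64) and Paip1 (0.065), relative to mass genes for Mrps30 (-0.022), Zfp131 (-0.25) and BC147527 (-0.22), and with libraries left out for Zfp131 (-0.14 to 0.16), BC147527 (-0.13 to 0.32), Gm20900 (-0.30 to 0.82) and Gm9752 (-0.68 to 0.0086).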
